A study of Homo sapiens with 9 samples.

Results

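The epithelial keratins are taken here as 9 genes, KRT7, KRT8, KRT10, KRT17, KRT18, KRT19, KRT20, KRT23 and KRT80, found by their symbols among the 58920 genes counted in LIM1215 colorectal cancer cells. All 9 symbols were listed in each of the 9 libraries, and 7 of them had at least 10 counts over these libraries and were tested, as were 19102 genes in all. KRT20 and KRT23 had no count in any library. LIM1215-parental cells were cultured without drug, whereas LIM1215-R1 and LIM1215-R2 are cell populations, not clones, that were derived from them independently under rising concentrations of cetuximab, an antibody that blocks the EGF receptor. The libraries are labelled only with the line (Parental, Resistant_1 or Resistant_2) and a replicate number, with 3 libraries per line, and no drug given at harvest is named in the labels. The study's supplement describes the sequenced cells of all lines as untreated, in basal culture.

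Keratins form the intermediate filaments of epithelial cells. A filament is built from pairs of an acidic type I chain and a basic type II chain, so that each epithelium makes keratins of both types, and a chain without a partner is usually degraded. KRT8 (type II) and KRT18 (type I) are the main pair of simple epithelia such as the lining of the colon. KRT19 is another type I keratin of simple epithelia, and KRT20 marks the differentiated cells of the intestine. KRT7 is a type II keratin of glandular and ductal epithelia that the normal colon makes little of. KRT80 (type II) and KRT23 (type I) are other epithelial keratins, KRT10 (type I) belongs to the upper layers of the epidermis, and KRT17 (type I) to hair follicles and injured epidermis. The type II genes lie in a cluster on chromosome 12, together with KRT18, and the other type I genes in a cluster on chromosome 17. In RefSeq on GRCh38, KRT8 spans chr12:52897191-52949860 and KRT18 chr12:52948855-52952906, and the ends of these intervals overlap on opposite strands.

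Total counts per library ranged from 13737416 to 18725014, and libraries of the same line differed by more than counting noise, with a chi-square per degree of freedom of 1.82 to 6.04. The study's supplement calls its replicates technical without naming the step at which they were split, so p-values measure the spread between these libraries only, and effects of culture or harvest cannot be told apart from those of the line. As a check of the cell type, markers of colonic epithelium summed to 2920 to 2950 CPM (counts scaled to the library's total with TMM factors) in LIM1215-parental libraries, 2460 to 2530 in LIM1215-R1 and 2370 to 2390 in LIM1215-R2, and 6 of the 7 were counted, with KRT20 the exception. These markers did not all fall. At an adjusted p of 0.01 or less in edgeR, 4 of the 6 were lower in each resistant line, where 13.4% and 11.6% of all genes tested were. VIL1 was higher in both (log2 fold change 0.40 and 0.26), and CDH1 did not pass (adjusted p = 0.0129 and 0.0297). The part of this lower marker sum in the keratin differences was not tested. Marker sums for mesenchyme, leukocytes and endothelium were at most 3.19, 0.531 and 0.722 CPM.

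In both resistant lines, keratin transcripts were higher than in parental cells. Of the 7 keratins tested, 7 were called higher in LIM1215-R1, which here means an adjusted p of 0.01 or less. In LIM1215-R2 6 were, all but KRT17, and none was called lower in either line. KRT17 was tested only because of its counts in the resistant libraries, so its increase was close to fixed in advance. It is no support, here or in the values of all 7 that follow. The other 6 were called higher in both lines. Among all genes tested, 27.3% were called in LIM1215-R1, with 14% higher and 13.4% lower, and 23.8% in LIM1215-R2, with 12.3% higher and 11.6% lower. Calls are more frequent among well counted genes, at 40.9% and 35.6% of the 7811 genes that averaged 20 CPM or more. The 7 keratins had a median log2 difference from parental cells of 0.58 in LIM1215-R1, where that of all genes tested was -0.011, and 0.43 in LIM1215-R2, where it was -0.0037. For each of the 7, the parental libraries did not overlap with those of either resistant line, as was so for 44% and 42.8% of all genes tested. Most of the differences were small. Differentially expressed genes (DEGs), which also need a log2 fold change of 1.5 or more in size, were KRT7 and KRT17 in LIM1215-R1, where 5.14% of all genes were DEGs, and KRT7 alone in LIM1215-R2, where 4.82% were.

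**Figure D1:**
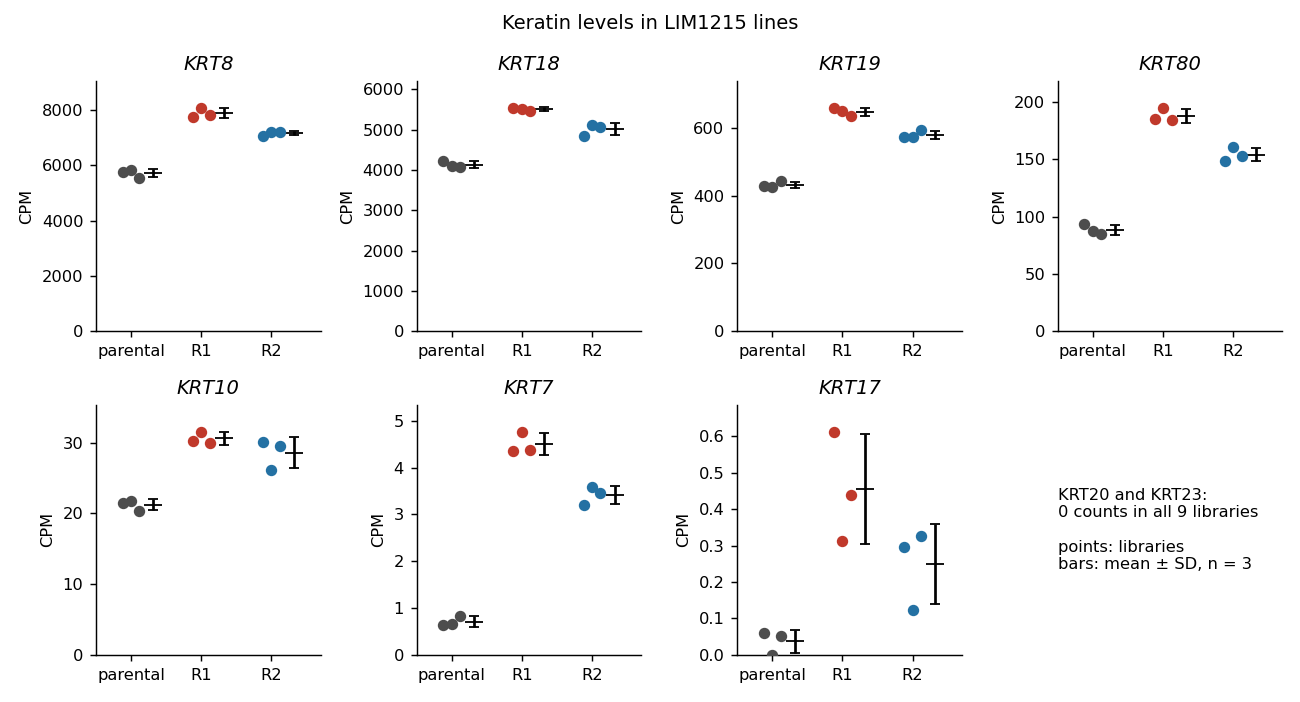
Level of each counted keratin in CPM (vertical axis, linear, from 0) in the 3 libraries of each line (points), with the mean ± SD beside them. For each of the 7 keratins, every parental library lies below every library of both resistant lines, and KRT8 reaches 8084 CPM where KRT17 stays at or below 0.613.

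KRT8 and KRT18 carried most of the keratin counts. KRT8 was at 5761, 5830 and 5561 CPM in the parental libraries, 7746, 8084 and 7821 in LIM1215-R1 and 7072, 7224 and 7215 in LIM1215-R2. The 3 lines did not overlap, with parental cells lowest and LIM1215-R1 highest. KRT8 rose 1.38-fold in LIM1215-R1 (log2 fold change 0.46, SE 0.028, adjusted p = 1.91e-13) and 1.25-fold in LIM1215-R2 (0.33, SE 0.028, adjusted p = 2.47e-10). KRT18, its partner, was at 4222, 4105 and 4067 CPM in parental cells, 5537, 5514 and 5447 in LIM1215-R1 and 4844, 5113 and 5066 in LIM1215-R2. Here too no library of one line reached the range of another. KRT18 rose 1.33-fold in LIM1215-R1 (log2 fold change 0.41, SE 0.0292, adjusted p = 5.38e-12) and 1.21-fold in LIM1215-R2 (0.28, SE 0.0292, adjusted p = 1.29e-08). By mean CPM, KRT8 ranked 6 among all genes in parental cells and 5 in each resistant line, and KRT18 ranked 13 in parental cells and 9 in each resistant line. Together, the 9 keratins took 1.05% ± 0.0149 (SD, n = 3) of all counts in parental cells, 1.41% ± 0.015 in LIM1215-R1 and 1.30% ± 0.027 in LIM1215-R2.

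Both genes have many processed pseudogenes, copies of the spliced transcript elsewhere in the genome, to which their reads can also align. For KRT8, 52 pseudogenes were listed and 48 had a count, and together they held 1.3% to 1.63% of the KRT8 count in a library. The 68 pseudogenes listed for KRT18 held 0.544% to 0.734% of its count, with a count for 64. In edgeR, 3 of the 38 tested pseudogenes of KRT8 were called higher in LIM1215-R1 and 1 in LIM1215-R2. Over all genes tested, 14% and 12.3% were called higher in these lines. An unadjusted p under 0.05 was found for 11 and 6 of the 38. For KRT18, with 47 tested, edgeR and DESeq2 called 0 in either line, with an unadjusted p under 0.05 for 3 and 1. The most counted one of KRT8, KRT8P3, matched the spliced KRT8 transcript at 97.1% of its aligned bases, and KRT8P18 at 90.2%. Adding the pseudogene counts to their parent genes left KRT8 and KRT18 higher in both lines at the same threshold.

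KRT19 was the next most abundant keratin. Its levels were 428.5, 426.8 and 442.1 CPM in parental cells, 659.6, 649.6 and 635.3 in LIM1215-R1 and 572.4, 572.4 and 594.2 in LIM1215-R2. The lines did not overlap and had the same order as for KRT8. KRT19 rose 1.498-fold in LIM1215-R1 (log2 fold change 0.58, SE 0.0382, adjusted p = 1.04e-12) and 1.34-fold in LIM1215-R2 (0.42, SE 0.0382, adjusted p = 7.52e-10). Among all genes, its rank by mean CPM was 288 in parental cells, 157 in LIM1215-R1 and 186 in LIM1215-R2.

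KRT80 was the most changed of the abundant keratins. It was counted at 93.1, 87.4 and 84.7 CPM in parental cells, 184.8, 194.9 and 184.2 in LIM1215-R1 and 148.9, 160.6 and 152.8 in LIM1215-R2. No parental library came near the resistant ones, and those of LIM1215-R2 all lay below those of LIM1215-R1. KRT80 rose 2.13-fold in LIM1215-R1 (log2 fold change 1.09, SE 0.0519, adjusted p = 1.23e-15) and 1.74-fold in LIM1215-R2 (0.80, SE 0.0522, adjusted p = 8.77e-13), below the fold that defines a DEG.

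KRT7 showed the largest fold change among keratins with more than a few counts. It was a rare transcript, with 11, 9 and 16 counts in the parental libraries, 71, 76 and 70 in LIM1215-R1 and 54, 58 and 53 in LIM1215-R2. These are 0.649, 0.650 and 0.841 CPM in parental cells, 4.36, 4.77 and 4.38 in LIM1215-R1 and 3.21, 3.59 and 3.46 in LIM1215-R2, again with no overlap between lines. KRT7 rose 6.185-fold in LIM1215-R1 (log2 fold change 2.63, SE 0.225, adjusted p = 2.53e-10) and 4.70-fold in LIM1215-R2 (2.23, SE 0.235, adjusted p = 1.29e-08). Tested against the DEG fold itself, 1 keratin, KRT7, remained a DEG in LIM1215-R1 and 0 in LIM1215-R2. Counts of 9 to 76 per library make this the least precise change apart from KRT17. KRT7 and KRT80 are neighbours, at chr12:52233243-52255853 and chr12:52168996-52192014, with 41229 bases between them. The hair keratin genes on the other side of KRT7 had few reads, with 5 counts for KRT86, 9 for KRT81 and 3 for KRT83 over all 9 libraries.

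The epidermal keratins KRT10 and KRT17 were at low levels. KRT10 was at 21.5, 21.8 and 20.4 CPM in parental cells, 30.3, 31.6 and 29.9 in LIM1215-R1 and 30.2, 26.1 and 29.5 in LIM1215-R2. The parental libraries lay apart from the others, whereas the resistant lines overlapped. KRT10 rose 1.44-fold in LIM1215-R1 (log2 fold change 0.53, SE 0.0788, adjusted p = 4.5e-06) and 1.35-fold in LIM1215-R2 (0.43, SE 0.0794, adjusted p = 8.9e-05). KRT10-AS1, listed on the opposite strand across KRT10, had 724 counts over the 9 libraries and did not pass the test in either line (adjusted p = 0.076 and 0.174). The counts are on 1 strand, so reads of the antisense gene are not part of the KRT10 count as long as the library kept strand.

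KRT17 was counted 1, 0 and 1 times in parental cells, 10, 5 and 7 times in LIM1215-R1 and 5, 2 and 5 times in LIM1215-R2, so that the parental libraries lay below the others and the resistant lines overlapped. With libraries scaled as for CPM, LIM1215-R1 had 11.4 times the parental count (22 against 2 counts, exact 95% interval 2.79 to 99.7). LIM1215-R2 had 6.19 times the parental count (12 against 2 counts, 1.38 to 57), and both intervals cover counting error only. The adjusted p was 0.00249 in the first line, which passed the test, and 0.045 in the second, which did not. KRT17 reached the 10 counts asked for testing only through the resistant libraries, so an increase was close to fixed in advance. The call in LIM1215-R1 was lost without Parental replicate 2 (adjusted p = 0.0108), without Resistant_1 replicate 1 (adjusted p = 0.0143) and with DESeq2 (adjusted p = 0.0167), where the fitted log2 fold change was 2.88, 3.01 and 3.53, against 3.28 with all libraries in edgeR. These losses were of the p threshold, while the direction was kept. Over all alternatives its adjusted p ranged from 0.00093 to 0.0167.

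**Figure D2:**
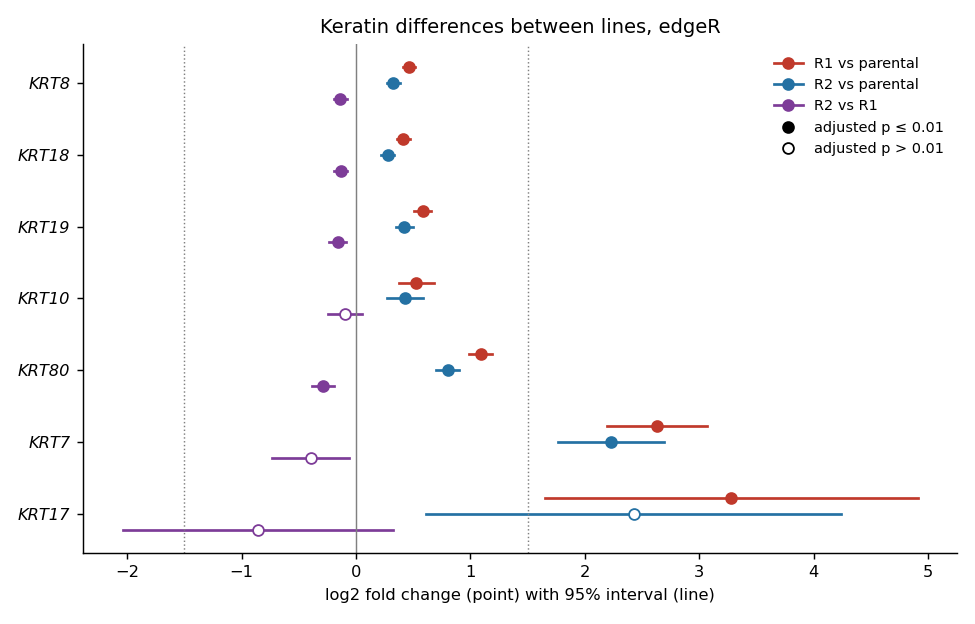
Log2 fold change (horizontal axis; points) with its 95% interval (lines) for the 7 keratins tested, with each resistant line set against parental cells and LIM1215-R2 set against LIM1215-R1. Filled points have an adjusted p of at most 0.01, and the dotted lines mark a log2 fold change of 1.5 in either direction; the intervals of KRT7 and KRT17 are wide, and all other keratins stay inside the dotted lines.

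KRT20 and KRT23, at chr17:40875889-40885242 and chr17:40922700-40937646, had 0 counts in all 9 libraries. A count of 0 allows up to 3 counts, or 0.158 to 0.217 CPM depending on the library, as far as counting error goes. These zeros came with a feature of the genome build. The hg38 release holds 261 alternate sequences, which repeat stretches of the chromosomes, and the loci of KRT20 and KRT23 were covered by one over their whole length at 100% identity, whereas the other 7 keratin loci were not covered. The first 80 coding bases of both genes show this, since each stretch was found 1 time on chromosome 17 and 1 more time on an alternate sequence, while those of the other 7 keratins were found 1 time on their chromosome and on no alternate sequence. In hg38 the stretch of KRT20 is chr17:40885106-40885185 and that of KRT23 chr17:40936524-40936603, both on the minus strand, with the start codon in capitals.
KRT20: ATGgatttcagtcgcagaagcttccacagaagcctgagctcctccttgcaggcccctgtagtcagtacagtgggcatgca
KRT23: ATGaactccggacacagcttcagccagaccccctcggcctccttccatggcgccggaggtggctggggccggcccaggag
Over all protein-coding genes with a locus of at most 100000 bases, 298 were covered in this way, and 71.8% of these had 0 counts in every library, with a median of 0. Of the 15565 genes that no alternate sequence covered, 22.5% had 0 counts, and the median was 954. Among the covered genes are PRPF8, a core splicing protein, YWHAE, an adaptor protein, and EEF1D, a translation factor, which had 41, 34 and 104 counts over all 9 libraries although cells in general make much of them. Whether the alignment index held the alternate sequences is not given in the sources used here. The zeros of KRT20 and KRT23 are therefore listed values, and nothing about the presence of these transcripts is read from them.

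Between the resistant lines, keratins were slightly lower in LIM1215-R2. KRT8, KRT18, KRT19 and KRT80 were called, 4 of the 7 tested, all lower in LIM1215-R2, where 7.16% of all genes tested and 11.3% of those with at least 20 CPM were called, 3.77% of all as lower. Of the 7, 0 were DEGs between the resistant lines in edgeR or in DESeq2, where 0.764% of all genes tested were, and 5 of the 7 had an unadjusted p under 0.05. KRT80 differed most among the called ones, at -0.29 on the log2 scale (SE 0.0502, adjusted p = 0.000209). KRT8 fell by 0.14 on the log2 scale (adjusted p = 0.00115), KRT18 by the same amount (adjusted p = 0.00197) and KRT19 fell by 0.16 (adjusted p = 0.00444). For KRT7 the difference was -0.40 with a 95% interval of -0.731 to -0.0601 (adjusted p = 0.144), for KRT10 -0.098 (-0.248 to 0.0517) and for KRT17 -0.85 (-2.04 to 0.327), none of which passed the test. KRT19 lost its call when libraries were scaled by total counts alone (adjusted p = 0.0111). When single libraries were left out, 2 keratins were called without Resistant_1 replicate 3 and 1 without Resistant_2 replicate 1, which was KRT80 (highest adjusted p with any library left out, 0.00515).

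The libraries of the 3 lines overlapped in the balance of type II to type I chains. Levels of different genes are comparable only per length, and the result depends on which length is used. The annotated exons of KRT8 over all its transcripts together measure 6881 bases, where its canonical transcript measures 1784. Per kb of exon union, the ratio of summed type II to summed type I keratins was 0.552 ± 0.0127 (SD, n = 3) in parental cells, 0.571 ± 0.0139 in LIM1215-R1 and 0.570 ± 0.0075 in LIM1215-R2. Per kb of canonical transcript, a length chosen after the data were seen, the ratio was 0.995 ± 0.0231, 1.02 ± 0.0247 and 1.02 ± 0.0147 in the same order. The overlap was present with either length. KRT8 and KRT18 dominate both sums, and their own ratio per kb of canonical transcript was 1.10 ± 0.025 in parental cells, 1.14 ± 0.0266 in LIM1215-R1 and 1.13 ± 0.0194 in LIM1215-R2, with overlapping libraries.

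KRT19 relative to KRT18, and KRT7 relative to KRT8, were higher in the resistant lines, as described here without a test. KRT19 per KRT18, in CPM per kb of exon union, was 0.133 to 0.143 in the parental libraries, 0.153 to 0.157 in LIM1215-R1 and 0.147 to 0.155 in LIM1215-R2. The parental libraries thus lay below all resistant ones, while the resistant lines overlapped, and with canonical lengths the ranges were 0.103 to 0.111, 0.119 to 0.121 and 0.114 to 0.120. KRT7 per 1000 KRT8, per kb of exon union, was 0.215 ± 0.0388 (SD, n = 3) in parental cells, 0.982 ± 0.0288 in LIM1215-R1 and 0.821 ± 0.0374 in LIM1215-R2, and per kb of canonical transcript 0.137 ± 0.0248, 0.627 ± 0.0184 and 0.524 ± 0.0239 in the same order. KRT8 was by far the major type II keratin with either length. Per kb of exon union, KRT80 made up 0.846% ± 0.0286 of the summed keratin level per kb in parental cells, 1.32% ± 0.0296 in LIM1215-R1 and 1.19% ± 0.0299 in LIM1215-R2. With canonical lengths the share of KRT80 was 0.353% ± 0.0121, 0.549% ± 0.0107 and 0.495% ± 0.0127.

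**Figure D3:**
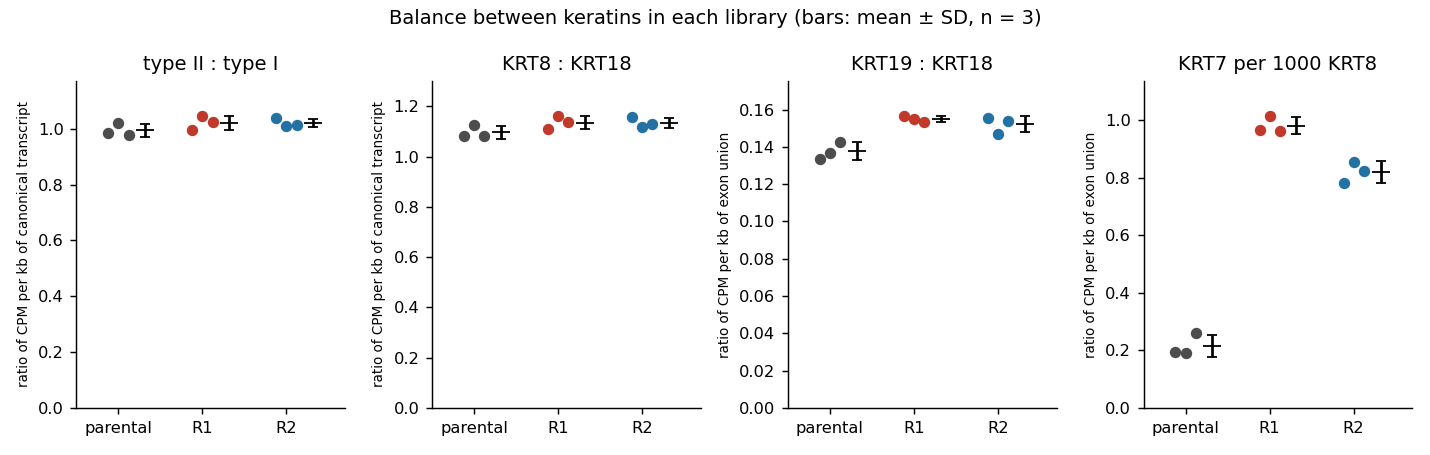
Ratios between keratins in each library (points), with mean ± SD (n = 3), as CPM per kb of canonical transcript (the 2 panels on the left) or of exon union (the 2 on the right), with all axes from 0. Type II to type I and KRT8 to KRT18 overlap between the lines, whereas KRT19 to KRT18 and KRT7 per 1000 KRT8 are lower in every parental library than in the resistant ones.

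Of 46 other keratins listed, 10 were tested, and KRT15 and KRT5 reached a mean of 1 CPM in a line. A further 26 had 0 counts in every library, and 6 of these, KRT12, KRT33A, KRT33B, KRT37, KRT39 and KRT40, lie in loci that an alternate sequence covers at 100% identity, so that their zeros are listed values as for KRT20 and KRT23. KRT15, a type I keratin of basal epithelial cells whose gene lies 4727 bases from KRT19, was at 1.62 ± 0.232 CPM (SD, n = 3) in parental cells, 3.96 ± 1.05 in LIM1215-R1 and 3.17 ± 0.1 in LIM1215-R2. It rose in both lines (log2 fold change 1.30, adjusted p = 2.79e-05, and 0.98, adjusted p = 0.00127). KRT5, the type II keratin of basal cells, was counted 12 times in parental cells, 63 times in LIM1215-R1 and 22 times in LIM1215-R2, which is 5.43 times the parental level in LIM1215-R1 (exact 95% counting interval 2.9 to 11.1). In all, 5 of the 10 tested were called in LIM1215-R1, 3 in LIM1215-R2 and 0 between the resistant lines. Between these lines, 2 had an unadjusted p under 0.05 and DESeq2 also called 0. The shares called over all genes tested were 27.3%, 23.8% and 7.16% in the same order, so that the count in LIM1215-R2 is near its share. Those called in LIM1215-R1 include KRT36, KRT71 and KRT75, and those in LIM1215-R2 KRT36 and KRT71. These genes were tested only because of their counts in the resistant libraries, so their calls are no support for an increase.

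DEGs among these other keratins were KRT5, KRT36, KRT71 and KRT75 in LIM1215-R1 and KRT36 and KRT71 in LIM1215-R2, all with few counts. KRT36, a hair keratin, had 2 counts in parental cells, 35 in LIM1215-R1 and 30 in LIM1215-R2, which gave ratios of 18.1 (4.65 to 155) and 15.5 (3.93 to 134). KRT71, a keratin of the inner hair root sheath, had 0, 16 and 13 counts. Against a floor of 3 counts over the parental libraries, its ratio was 5.51 in the first resistant line and 4.47 in the second. These 2 ratios leave out the counting error of the resistant counts and are no strict lower bounds. KRT75, another hair follicle keratin, had 1, 15 and 11 counts, with ratios of 15.5 (2.38 to 653) and 11.4 (1.65 to 489). Among these genes DESeq2 called 3 as DEGs in the first line and 2 in the second. Markers of stratified squamous epithelium, KRT5 and other keratins among them, summed to 2.1 to 2.83 CPM in parental cells. The sum was 5.01 to 6.5 in LIM1215-R1 and 3.22 to 3.98 in LIM1215-R2, with 7 of the 8 markers counted. These markers did not all rise. Of the 4 tested, 2 were called higher in the first line and 0 in the second, with 0 called lower in either. Over all genes tested, 14% were called higher in the first line and 12.3% in the second. Among those too rare to test, KRT14 had 6, 1 and 2 counts and KRT6A 0, 3 and 4, parental cells first. The part of squamous cells in the keratin levels was not tested.

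Proteins that anchor keratin filaments did not move in 1 direction. Of 21 linkers and desmosome proteins, 18 were tested. In LIM1215-R1 6 were higher and 5 lower, with a median log2 fold change of 0.055. In LIM1215-R2 5 were higher and 8 lower, with a median of -0.084. Over all genes tested, 14% were called higher and 13.4% lower in LIM1215-R1, and 12.3% and 11.6% in LIM1215-R2. PLEC (plectin), which links filaments to the hemidesmosome, was at 760 ± 49.5 CPM (SD, n = 3) in parental cells, 1053 ± 65.1 in LIM1215-R1 and 1180 ± 40.2 in LIM1215-R2, and rose by 0.47 (adjusted p = 3.28e-09) and 0.64 (adjusted p = 8.63e-12) on the log2 scale. DSP (desmoplakin), which ties keratins to desmosomes, was lower in both lines, with log2 fold changes of -0.24 (adjusted p = 2.01e-05) and -0.13 (adjusted p = 0.00942). PERP, a membrane protein of desmosomes, rose by 0.62 and 0.40. EPPK1 (epiplakin), which binds keratin bundles, was the DEG of the list in LIM1215-R1. It was at 18.9 ± 1.78 CPM in parental cells, 63.8 ± 1.86 in LIM1215-R1 and 50.9 ± 2.73 in LIM1215-R2, with log2 fold changes of 1.76 (SE 0.0742, adjusted p = 8.04e-17) and 1.43 (SE 0.0754, adjusted p = 9.59e-15), the latter short of the fold of a DEG.

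Among 16 genes for other intermediate filaments, 10 were tested. In LIM1215-R1 4 were higher and 2 lower, and in LIM1215-R2 2 were higher and 2 lower, with median log2 fold changes of 0.169 and 0.088. The shares over all genes tested were 14% higher and 13.4% lower in LIM1215-R1, and 12.3% and 11.6% in LIM1215-R2. VIM (vimentin), the filament of mesenchymal cells, had 0 counts in every library, and no alternate sequence covers its locus. LMNA, a lamin of the nuclear envelope, was at 464.5 ± 18.1 CPM (SD, n = 3) in parental cells and rose by 0.33 on the log2 scale in LIM1215-R1 (adjusted p = 1.49e-07), with 0.11 in LIM1215-R2 (adjusted p = 0.0427). For LMNB2 the values were 0.0088 and 0.071, neither past the test. NEFL, a filament chain of neurons, was at 214.8 ± 6.57 CPM in parental cells, and rose by 0.72 (adjusted p = 1.48e-13) and 0.56 (adjusted p = 2.78e-11). DEGs of this list had few counts. SYNC (syncoilin), known from muscle, was at 3.76 CPM in parental cells, 0.849 in LIM1215-R1 and 0.662 in LIM1215-R2 and fell in both (adjusted p = 8.23e-08 and 1.2e-08). BFSP1, a filament protein of the eye lens, was a DEG in LIM1215-R1 (log2 fold change 1.65, adjusted p = 0.000304) and had a log2 fold change of 1.19 in LIM1215-R2 (adjusted p = 0.0115). SYNM (synemin) was a DEG in LIM1215-R2 (1.57, adjusted p = 0.00269), with 0.92 in LIM1215-R1 (adjusted p = 0.0995).

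**Figure D4:**
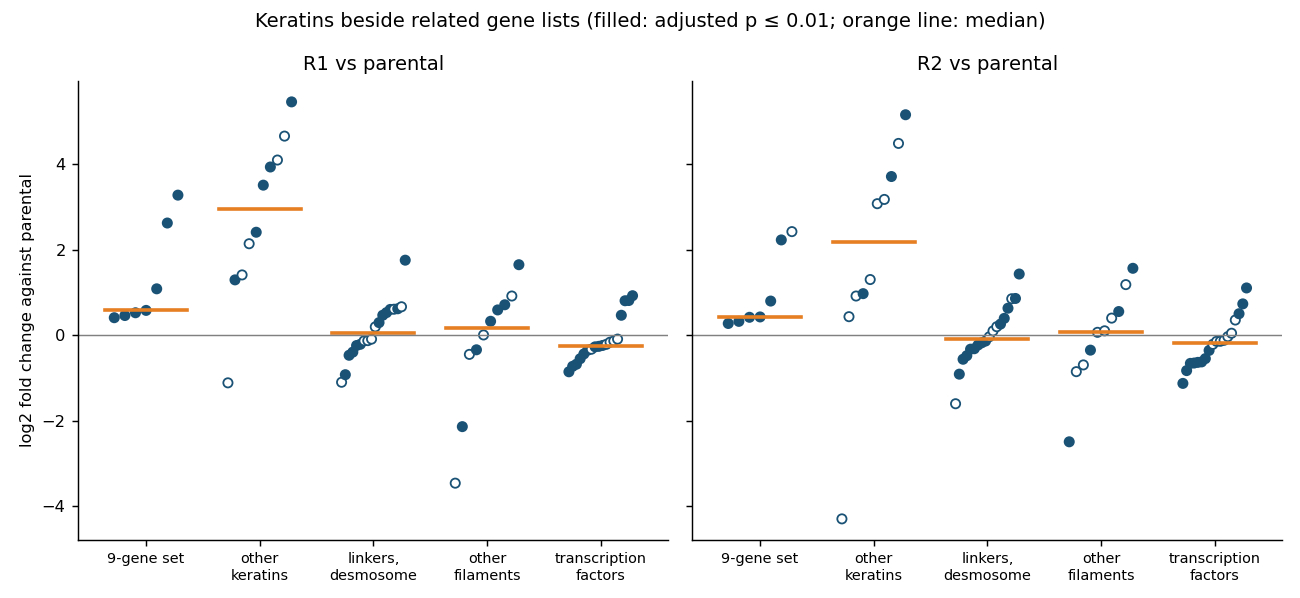
Log2 fold changes against parental cells (vertical axis) of each tested gene of the 9-gene set, of other keratins, of linkers and desmosome proteins, of other intermediate filaments and of epithelial transcription factors, in LIM1215-R1 (left) and LIM1215-R2 (right). Filled points have an adjusted p of at most 0.01 and orange lines mark list medians; all 7 tested genes of the keratin set are above 0 in both panels, whereas linkers, other filaments and transcription factors lie on both sides. The values of other keratins are fitted to few counts and are no bounds.

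Transcription factors of epithelial cells moved in both directions, and all 18 listed were tested. In LIM1215-R1 4 were higher and 9 lower (median log2 fold change -0.247), and in LIM1215-R2 3 were higher and 8 lower (median -0.176), with no DEG. The shares over all genes tested were 14% higher and 13.4% lower in LIM1215-R1, and 12.3% and 11.6% in LIM1215-R2. CDX2, which sets intestinal identity, was at 412.8 ± 17.3 CPM (SD, n = 3) in parental cells and lower in both lines, with log2 fold changes of -0.44 (adjusted p = 4.66e-09) and -0.55 (adjusted p = 6.04e-11). KLF5, a factor of dividing epithelial cells, was at 444.5 ± 13.4 CPM and had log2 fold changes of -0.73 (adjusted p = 1.19e-13) and -0.83 (adjusted p = 8.01e-15). EHF, an epithelial ETS factor, did not pass the test (adjusted p = 0.142 and 0.0184). The higher ones in LIM1215-R1 were KLF4, GRHL1, GRHL3 and TP63, of which all but TP63 were also higher in LIM1215-R2. They are named here because they are few, whereas most of the lower ones are not named. TP63 was at only 1.56 ± 0.438 CPM in parental cells and 2.76 ± 0.443 in LIM1215-R1. KLF4, a factor of differentiating epithelial cells, rose by 0.81 and 1.11 on the log2 scale.

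RefSeq promoter sequences were at hand for KRT8, KRT10 and KRT20. The 250 bases before the start of KRT10 (GRCh38.p14, chr17:40822615-40822864, minus strand) are shown because KRT10 rose in both lines and its window lies directly upstream of the gene, with capitals at matches of a TATA box, of the CDX site TTTATG and of a CACCC box as bound by KLF factors.
KRT10: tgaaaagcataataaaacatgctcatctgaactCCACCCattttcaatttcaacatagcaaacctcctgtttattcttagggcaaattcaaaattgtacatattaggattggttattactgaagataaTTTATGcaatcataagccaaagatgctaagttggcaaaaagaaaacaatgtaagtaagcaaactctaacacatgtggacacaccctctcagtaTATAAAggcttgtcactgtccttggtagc
TATAAA begins 29 bases before the start and is present in 10.7% of 35116 promoter windows of this length, searched on both strands. TTTATG lies at 122 bases, with a match in 9.64% of all windows, and CCACCC at 217 bases, with 31.3%. A match of TTTATG was also found in the window of KRT20, and neither the GC box GGGCGG nor the AP-1 site TGANTCA was matched in any of the 3 windows. The KRT8 window, chr12:52926470-52926719, lies inside the span of the gene, well upstream of its first coding bases at chr12:52904902-52904981. It may belong to another start than that of the main transcript, so its lack of matches is not read as a trait of KRT8. These matches describe letters only.

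The genes most alike KRT7 over the 9 libraries, by Pearson correlation of log2 CPM, were P3H3 (r = 0.9968), DUSP5 (0.9964) and CDC42EP3 (0.9954). The search covered 12530 genes with a mean of at least 1 CPM and left out all keratins, so KRT7 was not compared with them. P3H3 was at 0.182 CPM in parental cells, 14 in LIM1215-R1 and 8.16 in LIM1215-R2. For KRT17 they were RBMX2 (0.98), PPM1J (0.9752) and SNHG16 (0.9724), from counts of 0 to 10 of KRT17. The 9 points come from 3 lines and share their libraries, so these values describe the order of the lines.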

How the data were processed

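Stranded poly(A) libraries were sequenced from parental LIM1215 cells and from both resistant populations. The authors aligned paired reads to hg38 with STAR, and deposited raw counts per gene from htseq-count (HTSeq 0.9.1, reverse strand), without normalization. The gene annotation is not given in the sources used here. A quasi-likelihood model (edgeR 4.0.16 in R 4.3.3, TMM scaling) was fitted over all 9 libraries to the 19102 genes whose counts summed to 10 or more. Each of the 3 contrasts between lines was tested in this model, and p-values were adjusted over these genes by the Benjamini-Hochberg method. Pseudogenes were aligned with blastn 2.17.0 and loci to alternate sequences with minimap2 2.31. Lengths came from GENCODE, and positions and promoters from RefSeq. The test was tried on simulated counts first. Members, lists and the rule for genes named (the 9 keratins, DEGs and the 3 most abundant genes of each list, other keratins that were DEGs or had at least 1 CPM, and the 3 genes most alike each keratin DEG) were chosen with earlier results of these data known. Alternatives were DESeq2 1.42.0, other filters, scalings and thresholds, a replicate block, pseudogene counts added to the parent, and each library left out. Thinned counts and canonical lengths were added after seeing the data. A sequence comparison of 1 keratin with its pseudogene is not reported here.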

Additional observations from a re-analysis of the deposited data

Results flagged for a closer look

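Against the parental cells they share, the 2 resistant lines differed in the size of the keratin change for 4 genes, by the test of LIM1215-R2 against LIM1215-R1. The log2 fold changes were -0.1368 for KRT8, -0.1351 for KRT18, -0.1612 for KRT19 and -0.2865 for KRT80, all lower in LIM1215-R2. KRT80 was called in every fit that left out a library, whereas KRT8 lost the call in 1 of 9 such fits, KRT18 in 2 and KRT19 in 4.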

How the results depend on the processing

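KRT7, KRT8, KRT10, KRT18, KRT19 and KRT80 were called higher than in parental cells in each alternative in which they were tested, and no alternative reversed a direction. Keratin DEGs in LIM1215-R1, 2 as reported, were 0 with at least 10 counts asked in every library, which leaves KRT7 and KRT17 untested, and 1 with DESeq2, with its lfcShrink function or with a test against the fold itself. Without single libraries they were 1 to 2. In LIM1215-R2, 1 as reported became 0 under the same filter, 0 in the test against the fold and 2 with pseudogene counts added, since KRT17 then passed (adjusted p = 0.00955). Keratins called between the resistant lines, 4 as reported, were 1 to 4 without single libraries. The type II to type I ratio in parental, LIM1215-R1 and LIM1215-R2 cells was 1.266, 1.307 and 1.305 without length, 0.8788, 0.9009 and 0.9006 with the longest transcript, and 0.9948, 1.022 and 1.022 with the canonical one. Replicate numbers showed no clear pairing of the libraries. Correlations of deviations were -0.0186 to 0.0984 for the same number and -0.106 to 0.0648 for different numbers. A replicate block left 2, 1 and 0 DEGs and 7, 6 and 4 keratins called. Depth limits KRT17 and the other keratins of few counts.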
